A study of Homo sapiens with 9 samples.

Results

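CHAC1, CHAC2, GGCT, GGT7 and LANCL1 are 5 genes whose products break down glutathione, process its fragments or use it, and they were followed here through the RNA of cells treated with dyes that light up an RNA tag. They were matched by symbol and then by gene ID among the 57500 genes counted, and all 5 were found. The 5 genes were chosen by results of these same comparisons that were already known, so their levels and fold changes are a description and carry no test. RNA came from HEK293T cells, a line derived from human embryonic kidney, all kept in the same medium with serum. The cells received 10 µM HBC530, 10 µM MsOc3HBC or the solvent DMSO for 5 h, and each condition has 3 biological replicates, 9 libraries in all. HBC530 is the ligand that binds the fluorogenic RNA aptamer Pepper without a covalent bond. MsOc3HBC is an analogue that carries an electrophilic mesylate handle, meant to react with a guanine of the aptamer, and the sequencing asked whether either compound disturbed the transcripts of the cell.

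Glutathione is the main thiol of the cytosol, a tripeptide of glutamate, cysteine and glycine that neutralizes electrophiles and peroxides. Inside the cell it is cleaved by the ChaC enzymes into 5-oxoproline and cysteinylglycine, and outside the cell by γ-glutamyltransferases. CHAC1 is known as a gene that is switched on when the transcription factors ATF4, ATF3 and CEBPB respond to endoplasmic reticulum stress or amino acid shortage, whereas CHAC2 is usually made at a steady level.

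The libraries held between 28056929 and 62205366 gene counts, and the smallest totals were those of replicate 3 of MsOc3HBC and replicate 3 of HBC530 (34963314). These 2 libraries also stood apart from the other 7 along the first principal component of log2 levels (37.6% of the variance). They lay at 49.03 (MsOc3HBC) and 37.14 (HBC530) against −19.88 to −4.51, so values without them are given wherever a result rests on them. All 7 marker genes of HEK293T cells were present, from PAX2 at 2.07 to 3.87 counts per 1000000 counts of the library (CPM) up to VIM at 234.3 to 286.4 CPM. Of 9 markers of blood, liver, endothelial and connective tissue cells, 8 stayed at or below 0.11 CPM in every library, and COL1A1 lay at 19.2 to 35.5 CPM. The summed HEK293T markers ranged over 671.9 to 689 CPM in DMSO, 708.8 to 784.6 CPM in HBC530 and 681.2 to 794.3 CPM in MsOc3HBC, and the summed markers of other cells over 23.6 to 33.5, 24.8 to 35.5 and 19.2 to 27.8 CPM.

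CHAC1 lies at chr15:40952962-40956519 on the plus strand (GRCh38) and is counted over 3 exons and 2058 exonic bases. The sequence around its start is shown first because CHAC1 is the member whose level differed most between the groups, and ATF3, a transcription factor gene that passed the test against DMSO with both ligands, is set beside it. RefSeq promoter windows (GRCh38.p14, 250 bases before to 50 after each start, 300 bases each) were found for 4 of the 5 members and were searched on both strands for TGATGNAA, the C/EBP-ATF composite element, and for TGACGTCA, the cAMP response element. Capitals mark the match to the composite element, which in CHAC1 lies on the minus strand, and both lines read 5′ to 3′ on the plus strand.
CHAC1, chr15:40953251-40953280: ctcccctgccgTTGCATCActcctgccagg
ATF3, chr1:212565205-212565234: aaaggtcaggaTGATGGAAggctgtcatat
The match begins 209 bases upstream of the RefSeq start of CHAC1. A longer CHAC1 transcript in GENCODE begins further upstream and holds this stretch in the 5′ untranslated part of its first exon. In the first of 2 windows of ATF3 the match begins 191 bases upstream of the start. The windows of CHAC2, GGT7 and LANCL1 held no match to TGATGNAA, and no member's window held TGACGTCA. The second window of ATF3 held neither element. CTH and DDIT3, which were also called with MsOc3HBC, had no match to either element in their windows. No window was found for SLC7A11, another gene called with MsOc3HBC. Among all 35116 RefSeq windows, 3.62% held TGATGNAA and 1.85% held TGACGTCA. A match of letters is a description and does not show that a factor binds there.

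CHAC1 RNA was low in DMSO, higher with HBC530 and highest with MsOc3HBC. After scaling by TMM factors, which correct library totals for composition, the level was 2.29, 2.42 and 2.38 CPM in the DMSO libraries (mean 2.36 ± 0.064, SD, n = 3). With HBC530 it was 6.92, 6.35 and 6.43 CPM (6.56 ± 0.309). With MsOc3HBC it was 13.5, 14.2 and 16.4 CPM (14.7 ± 1.47). No library of one group reached the range of another, and the 9 values form 3 steps in the order DMSO, HBC530, MsOc3HBC. These levels rest on 105 to 147 raw counts in DMSO, 216 to 364 with HBC530 and 443 to 774 with MsOc3HBC. In bulk RNA, more cells expressing CHAC1 and more CHAC1 RNA per cell cannot be told apart.

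The fold changes put numbers on these steps. CHAC1 was 2.80-fold higher with HBC530 than with DMSO (log2 fold change 1.49, SE 0.11, 95% interval 1.24 to 1.73). With MsOc3HBC it was 6.29-fold higher than with DMSO (log2 2.65, SE 0.12, 2.38 to 2.93). Between the ligands, MsOc3HBC gave a 2.25-fold higher level than HBC530 at the same dose and time (log2 1.17, SE 0.11, 0.91 to 1.43). Both comparisons with DMSO share the 3 DMSO libraries, so they are not independent of each other. Without replicate 3 of the ligand the values were 1.49 and 2.57 on the log2 scale, and without replicate 3 of both ligands the difference between them was 1.07 (0.88 to 1.27). Leaving out any single library moved them only within 1.45 to 1.52, 2.57 to 2.70 and 1.08 to 1.22.

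**Figure D1:**
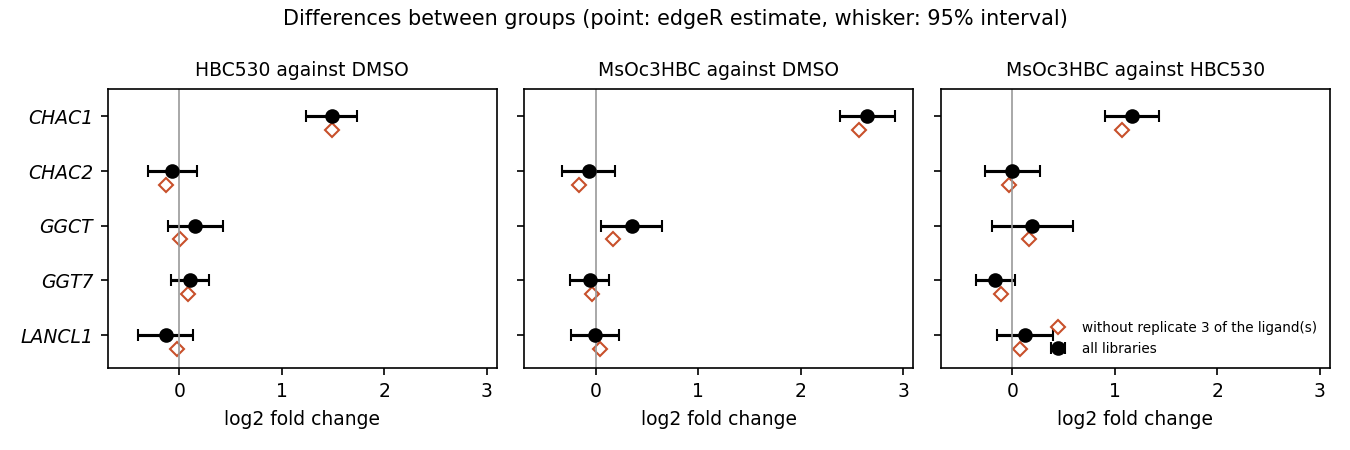
Log2 fold change of each gene in the 3 comparisons (horizontal axis), with the edgeR estimate as a filled point, its 95% interval as a whisker, and the estimate without replicate 3 of the ligand or ligands as an open diamond. CHAC1 lies at 1.49, 2.65 and 1.17, and for GGCT the diamond sits closer to 0 than the point in each comparison with DMSO.

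CHAC2 (chr2:53767792-53775196, plus strand, 1321 exonic bases) encodes the second ChaC enzyme, which cleaves the same bond of glutathione. Its level was 20.7, 17.3 and 19.3 CPM in DMSO, 18.0, 16.8 and 19.3 CPM with HBC530, and 16.2, 17.6 and 20.2 CPM with MsOc3HBC. The 3 ranges overlap almost completely. The log2 fold change was −0.07 in each comparison with DMSO (95% intervals −0.31 to 0.17 with HBC530 and −0.33 to 0.19 with MsOc3HBC), and between the ligands the interval was −0.27 to 0.27. Without replicate 3 of the ligand the values were −0.13 (−0.34 to 0.08) with HBC530 and −0.16 (−0.38 to 0.05) with MsOc3HBC. Changes of CHAC2 smaller than these bounds could not be seen with 3 libraries a group.

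GGCT (chr7:30496621-30504844, minus strand, 1597 exonic bases) encodes γ-glutamylcyclotransferase, which releases 5-oxoproline from γ-glutamyl amino acids. It measured 57.6, 52.1 and 53.7 CPM in DMSO, 53.9, 55.0 and 71.2 CPM with HBC530, and 61.0, 60.1 and 84.2 CPM with MsOc3HBC. Replicate 3 of each ligand was higher than every other library, and these are the 2 libraries that stood apart. The log2 fold change against DMSO was 0.15 (−0.12 to 0.43) with HBC530 and 0.01 (−0.15 to 0.17) without its replicate 3. With MsOc3HBC it was 0.35 (0.05 to 0.64), and 0.17 (0.00 to 0.33) without its replicate 3. An unnamed gene shares 441 bases of GGCT exons on the same strand, and it held a mean of 0.22 counts per library.

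GGT7 (chr20:34844720-34872860, minus strand, 2966 exonic bases) encodes a membrane protein of the γ-glutamyltransferase family. Its level was 51.3, 54.2 and 53.8 CPM in DMSO, 54.4, 57.3 and 58.1 CPM with HBC530, and 51.1, 51.6 and 47.7 CPM with MsOc3HBC. The HBC530 libraries lay narrowly above both other groups, with a log2 fold change of 0.10 (−0.08 to 0.29) against DMSO. MsOc3HBC gave −0.06 (−0.25 to 0.13) against DMSO and −0.17 (−0.36 to 0.02) against HBC530. Without the replicate 3 libraries of the ligands these values were 0.08, −0.03 and −0.12.

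LANCL1 (chr2:210431249-210477652, minus strand, 5254 exonic bases) encodes a glutathione-binding protein of the lanthionine synthetase C-like family. It measured 54.0, 45.3 and 45.6 CPM in DMSO, 45.1, 49.1 and 36.5 CPM with HBC530, and 47.1, 51.5 and 43.0 CPM with MsOc3HBC. The groups overlap, and replicate 3 was the lowest library within each ligand. The log2 fold changes were −0.14 (−0.40 to 0.13), −0.01 (−0.25 to 0.22) and, between the ligands, 0.12 (−0.15 to 0.40). Without replicate 3 of the ligand the values against DMSO were −0.03 and 0.04, and without replicate 3 of both ligands the difference between them was 0.07.

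Read against all genes, the 5 members passed the filter on low counts in every comparison. An adjusted p under 0.05 (edgeR quasi-likelihood test, Benjamini-Hochberg over all genes) was reached by 1 of the 5, CHAC1, with HBC530 and by 1 of the 5, again CHAC1, with MsOc3HBC, where 0.017% of 17684 genes and 0.154% of 17514 genes were called. Between the ligands none of the 5 and 0% of 17397 genes were called by edgeR, with 1274 genes at an unadjusted p under 0.05 and 24 genes called by DESeq2. The libraries of the ligands with the same number deviated together, and with a replicate block the comparison called 11.4% of genes, CHAC1 and GGCT among them (log2 1.16, 0.97 to 1.34, and 0.19, 0.08 to 0.30). All 3 libraries of the first group lay above all 3 of the second for 2 of the 5 members with HBC530 against DMSO (CHAC1 and GGT7; 6.32% of genes), 2 with MsOc3HBC against DMSO (CHAC1 and GGCT; 8.5%) and 1 with MsOc3HBC against HBC530 (CHAC1; 6.29%). Since these contrasts were known when the members were chosen, nothing is read from these counts.

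Levels of different genes can be compared only per length, as TMM-scaled CPM per kilobase of exons (RPKM). In DMSO the order was GGCT at 34.1 ± 1.77 RPKM, GGT7 at 17.9 ± 0.525, CHAC2 at 14.5 ± 1.28, LANCL1 at 9.20 ± 0.941 and CHAC1 at 1.15 ± 0.0311 (SD, n = 3). The order was the same with either ligand, and no 2 neighbours overlapped in any group. CHAC1 stayed the lowest of the 5 but came close to LANCL1 with MsOc3HBC, at 6.57 to 7.94 RPKM against 8.18 to 9.81 RPKM. In DMSO CHAC1 lay above 37.7% of the 18041 genes kept over all libraries, with HBC530 above 55.0% and with MsOc3HBC above 69.8%.

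**Figure D2:**
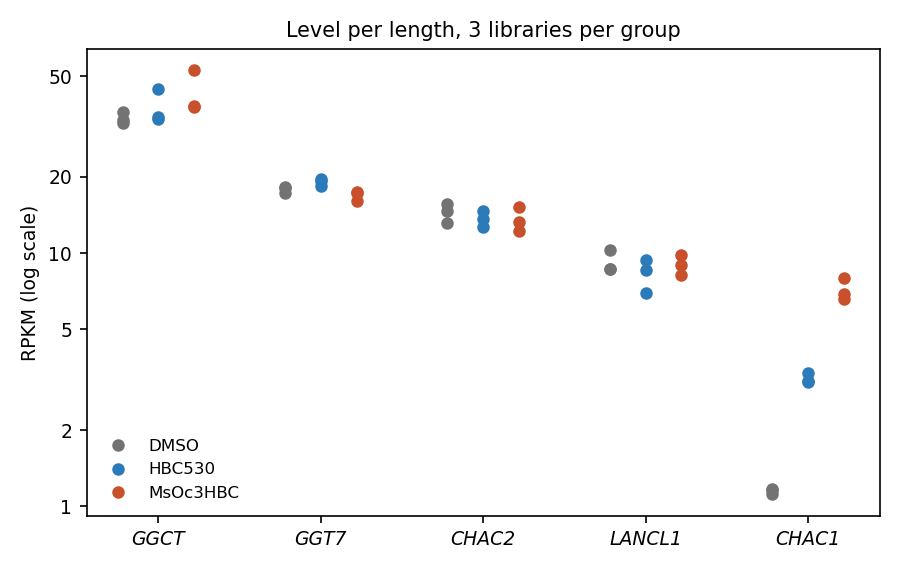
Level per length (RPKM, logarithmic vertical axis) of the 5 genes in each of the 3 libraries per group, ordered by their DMSO level. GGCT is the highest in every group, and CHAC1 moves from about 1.15 RPKM in DMSO to between 6.57 and 7.94 RPKM with MsOc3HBC, just under LANCL1.

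Within a library the relation between the enzymes does not depend on how libraries were scaled. CHAC1 made up 2.11%, 2.502% and 2.34% of the summed RPKM of the 3 cyclotransferases CHAC1, CHAC2 and GGCT in the DMSO libraries. The share was 6.63%, 6.14% and 5.01% with HBC530 and 11.5%, 12.0% and 10.5% with MsOc3HBC. The means were 2.32 ± 0.199%, 5.93 ± 0.831% and 11.3 ± 0.766% (SD, n = 3), and the groups did not overlap. Replicate 3 of each ligand gave the lowest share of its group, as GGCT was highest there. Per length, CHAC1 stood at 0.0799 ± 0.00926 of the CHAC2 level in DMSO, 0.234 ± 0.0183 with HBC530 and 0.526 ± 0.00975 with MsOc3HBC, so by RNA the stress-inducible ChaC gene remained the smaller of the pair. The summed RPKM of the 3 genes was 49.7 ± 2.97 in DMSO, 54.4 ± 6.87 with HBC530 and 63.6 ± 10.7 with MsOc3HBC, most of it GGCT. Replicate 3 of each ligand, which stood apart, held the highest sum. By library the sums were 52.8, 46.9 and 49.4 in DMSO, 50.7, 50.2 and 62.4 with HBC530, and 57.0, 57.9 and 75.9 with MsOc3HBC. Replicates 1 and 2 of HBC530 thus lay within the DMSO range.

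None of the tested paralogues of the members was called by edgeR against DMSO, with 1 at an unadjusted p under 0.05 with HBC530 and 0 with MsOc3HBC. Of 9 paralogues, 4 were tested: GGACT, which cleaves γ-glutamylamines, GGT1, the main γ-glutamyltransferase, LANCL2 and LANCL3. GGACT had log2 fold changes of 0.30 with HBC530 and 0.20 with MsOc3HBC, GGT1 −0.01 and 0.06, LANCL2 −0.03 and −0.15, and LANCL3, at a mean of 0.02 RPKM in DMSO, −0.54 and 0.34. GGT1 shares 306 exonic bases with SNRPD3 on the same strand, which held a mean of 13020 counts per library against 133.1 for GGT1, so reads near that stretch are uncertain. The other 5, GGT5, GGT6, GGTLC1, GGTLC2 and GGTLC3, were at or below 0.04 RPKM in DMSO and were not tested.

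Beyond the enzymes of breakdown, 2 genes that supply cysteine for glutathione rose with MsOc3HBC. Their list was chosen with earlier results of these data known, so their p-values are not a fresh test. SLC7A11, the subunit of system xc− that imports cystine, measured 10.4, 8.82 and 8.55 CPM in DMSO, 15.0, 13.9 and 11.1 CPM with HBC530, and 25.8, 33.2 and 22.6 CPM with MsOc3HBC. Like those of CHAC1, its libraries fall into 3 groups that do not overlap. Taken pair by pair, all 3 libraries of the first group lay above all 3 of the second for a share of all tested genes. That share was 6.32% with HBC530 against DMSO, 8.5% with MsOc3HBC against DMSO and 6.29% between the ligands. The share of genes with 3 separate groups was not counted. SLC7A11 rose with MsOc3HBC by 1.58 on the log2 scale (SE 0.14, edgeR adjusted p = 0.00142, higher in 3 of 3 libraries), and its value with HBC530 was 0.54 (adjusted p = 0.751). CTH, cystathionine γ-lyase, which makes cysteine from cystathionine, measured 23.6, 25.4 and 25.2 CPM in DMSO, 30.7, 29.4 and 24.7 CPM with HBC530, and 36.3, 38.4 and 41.4 CPM with MsOc3HBC. It rose with MsOc3HBC by 0.67 (SE 0.10, adjusted p = 0.0235), and with HBC530 the value was 0.21 (adjusted p = 0.751). The CTH call was lost without DMSO replicate 1, 2 or 3 or MsOc3HBC replicate 1 (edgeR adjusted p = 0.175, 0.218, 0.171 and 0.113), with log2 values of 0.63 to 0.70.

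Between the ligands SLC7A11 differed by 1.03 on the log2 scale (95% interval 0.67 to 1.40) and CTH by 0.46 (0.22 to 0.70), with edgeR adjusted p = 0.491 and 0.643. Under the replicate block both were higher with MsOc3HBC than with HBC530 (edgeR adjusted p = 2.77e-05 for SLC7A11 and 0.00429 for CTH). Without replicate 3 of both ligands the values were 1.03 and 0.32, with edgeR adjusted p = 2.82e-05 and 0.00785. Such calls were common in these fits. The fit without replicate 3 of both ligands called 564 of 17840 genes higher and 1071 lower, and the replicate block called 11.4% of 17397 genes. One pair of ligands was compared, so these p-values are adjusted over genes only.

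Of 66 other genes of glutathione metabolism in the files, 48 were tested with HBC530 against DMSO and none was called by edgeR, with 4 at an unadjusted p under 0.05 and none called by DESeq2. With MsOc3HBC 2 of 49 were called, SLC7A11 and CTH, both higher, beside the 0.154% of all genes. As the list was chosen with earlier results of these data known, nothing is read from this count. The median log2 fold change of the list was 0.04 with HBC530 and 0.07 with MsOc3HBC, against 0.00 and 0.01 over all genes. Without replicate 3 of the ligand the medians were −0.005 and −0.017, against −0.0006 and 0.008 over all genes. Of the list, 24 genes were then above 0 and 25 below with HBC530, and 22 above and 27 below with MsOc3HBC. Between the ligands 0 of 48 were called by edgeR (4 at an unadjusted p under 0.05, 1 called by DESeq2), and the median was 0.02 for the list and for all genes. Without replicate 3 of both ligands it was −0.02 for the list and 0.007 for all genes. Under the replicate block 7 of 48 were called beside 11.4% of all genes. SLC7A11, CTH and GPX8 were higher with MsOc3HBC, and GPX1, GPX4, GSTP1 and SLC25A39 were lower, each of these 4 by 0.24 or less on the log2 scale. These 5 additional genes were picked out here after their values were seen. GPX1, GSTP1 and SLC25A39 are also named below by their level alone.

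By step, edgeR made no call among the 3 genes of synthesis, the peptidases, the transporters, the redox enzymes or the transferases in any of the 3 comparisons without the block. The synthesis genes GCLC, GCLM and GSS had log2 fold changes between −0.06 and 0.09 with MsOc3HBC and between −0.14 and 0.21 with HBC530. GSS was the most abundant of them per length, at 33.9 RPKM in DMSO. The most abundant genes of the other steps were LAP3, an aminopeptidase (40.8 RPKM), SLC3A2, the partner of SLC7A11 (52.5 RPKM), SLC25A39, which carries glutathione into mitochondria (74.1 RPKM), GPX1, a peroxidase (225.1 RPKM), and GSTP1, a transferase (276.7 RPKM). SLC3A2 had log2 fold changes of 0.16 and 0.18 against DMSO with adjusted p = 0.751 and 0.506 (edgeR). OPLAH, which opens 5-oxoproline to glutamate, lay at 0.003 RPKM in DMSO and was not tested.

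**Figure D3:**
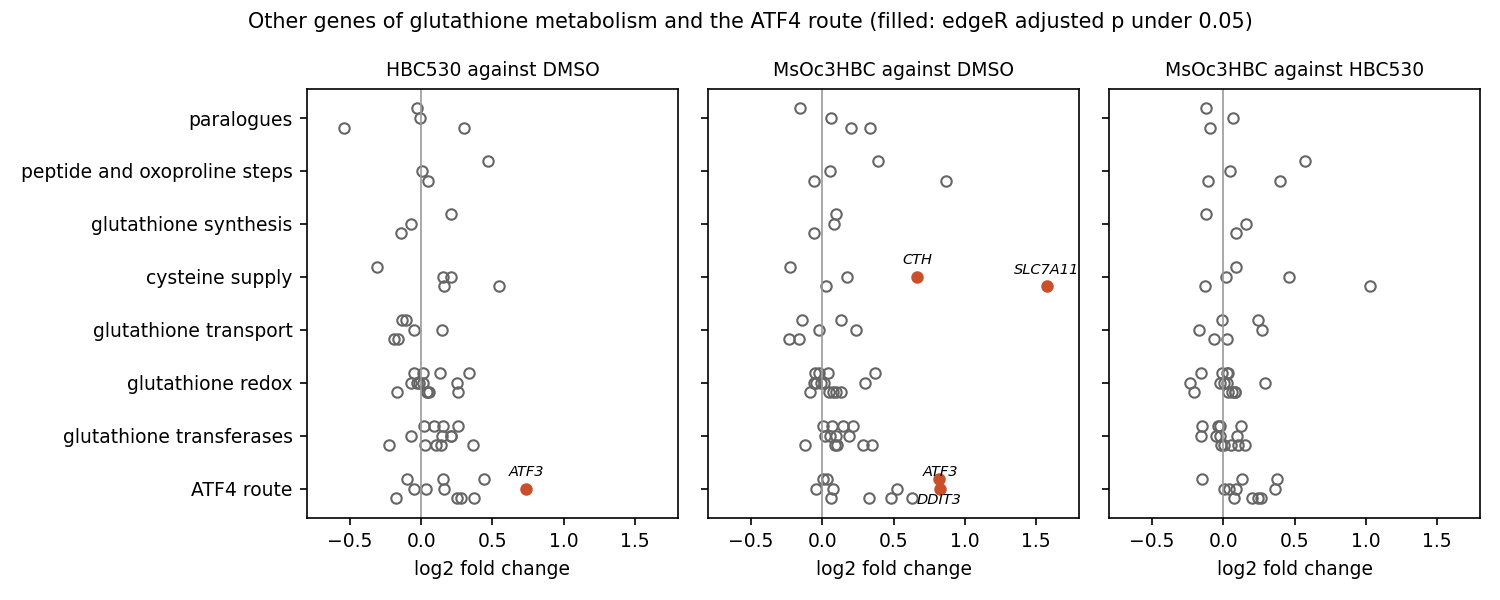
Log2 fold change (horizontal axis) of every tested gene of the paralogue, glutathione and ATF4 lists in the 3 comparisons, 1 circle a gene; filled circles passed an edgeR adjusted p under 0.05. SLC7A11 (1.58) and CTH (0.67) stand out with MsOc3HBC, ATF3 is filled against DMSO with both ligands, and no circle is filled between the ligands.

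The next genes are those of the ATF4 route, a list that holds the factors known to drive CHAC1 and also other genes of the route. This list too was chosen with earlier results known, so its p-values are not a fresh test. ATF3 measured 36.7, 36.1 and 33.5 CPM in DMSO, 59.3, 56.0 and 60.2 CPM with HBC530, and 61.1, 63.1 and 61.7 CPM with MsOc3HBC. It rose with HBC530 by 0.74 (SE 0.09, edgeR adjusted p = 0.0367) and with MsOc3HBC by 0.83 (SE 0.09, adjusted p = 0.00339). The difference between the ligands was 0.09 (−0.10 to 0.27, edgeR adjusted p = 0.849). The HBC530 call of ATF3 was lost without DMSO replicate 1, 2 or 3 or HBC530 replicate 1 or 2 (edgeR adjusted p between 0.0589 and 0.334).

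ATF4, the factor made when translation is slowed, measured 601.7, 669.4 and 690.5 CPM in DMSO, 789.9, 769.6 and 945.7 CPM with HBC530, and 936.3, 932 and 1126 CPM with MsOc3HBC. All 6 ligand libraries were above all 3 DMSO libraries, with log2 values of 0.37 (edgeR adjusted p = 0.751) and 0.63 (adjusted p = 0.0728). Of all tested genes, 6.32% had all 3 HBC530 libraries above all 3 of DMSO, and 8.5% had all 3 MsOc3HBC libraries above them. DDIT3, the CHOP factor, rose with MsOc3HBC by 0.82 (SE 0.14, edgeR adjusted p = 0.04998), and the call was lost without DMSO replicate 1, 2 or 3 or MsOc3HBC replicate 1 (adjusted p between 0.2202 and 0.3021). It was also lost with RLE factors (0.0508), upper-quartile factors (0.0557), 10 counts in every library (0.0549), a joint fit of the 9 libraries (0.183) and limma-voom (0.0674), so 5 of 14 alternatives made the DDIT3 call. Its exons share 355 bases with MARS on the opposite strand, which held a mean of 18650 counts per library against 191.6 for DDIT3, and the strand setting of the counting is not given in the sources used here. CEBPB had values of 0.28 and 0.48, and TRIB3, a target of ATF4 and CHOP, 0.15 and 0.00 (edgeR adjusted p = 0.751 and 0.142, then 0.751 and 0.992). In the whole list of 11 genes of this route, 1 was called with HBC530 (beside 0.017% of all genes) and 2 with MsOc3HBC (beside 0.154%), all higher. Without MsOc3HBC replicate 3 the count was 4, all higher, beside 36 higher and 40 lower of 18044 genes. None was called between the ligands by edgeR (1 at an unadjusted p under 0.05, and 0 by DESeq2). DESeq2 called 5 of the 11 with MsOc3HBC, all higher (ATF4, ATF3, CEBPB, CEBPG and DDIT3), beside 0.858% of the 15494 genes it tested. Under the replicate block, beside 11.4% of all genes, 3 of 11 were higher with MsOc3HBC than with HBC530, namely ATF4, CEBPG and DDIT3, of which CEBPG was named after its value was seen. Since the list was chosen with earlier results known, nothing is read from its counts.

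The profile over the 9 libraries most like that of CHAC1, after each gene was centred on its DMSO mean, belonged to very low genes. The 5 nearest were an unnamed gene on chromosome 21 (ENSG00000214955), AC019080.5, AGA-DT, ANKRD1 and ADM2, with root mean square differences of 0.557 to 0.716 on the log2 scale. None of them exceeded 22 raw counts in any library, so their likeness rests on few reads. SLC7A11 ranked 13th of 18040 genes with a difference of 0.861, ATF3 72nd with 1.14, DDIT3 159th with 1.24 and CTH 411th with 1.36. For scale, a flat profile differs from CHAC1 by 1.74 and the median gene by 1.76. The likeness describes these libraries and says nothing of shared control.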

How the data were processed

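The authors sequenced poly(A) RNA in 3 biological replicates per condition, used Trimmomatic 0.36 for trimming and STAR 2.5.2b for alignment on GRCh38, and took counts per gene from featureCounts (Subread 1.5.2). The annotation release and strand setting are not given in the sources used here. The deposited counts are raw and were the only values tested. The signal columns in the deposited tables of the authors are the same counts times 1 constant per library and were not used further. The log2 fold changes and p-values of those tables were not used.

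Each comparison was fitted on its own 6 libraries in R 4.3.3 with edgeR 4.0.16 (filterByExpr, TMM, quasi-likelihood F test, Benjamini-Hochberg adjustment over all genes, threshold 0.05), after tests on simulated data. CPM and RPKM used TMM factors over all 9 libraries. SE and 95% intervals are those of the fit. DESeq2 1.42.0 and limma 3.58.1 served as alternatives. Library totals were 28056929 to 62205366 counts, which limits the precision of low genes. Replicates of a group differed by more than counting noise (chi-square per gene 5.73 to 65.3).

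The members and lists were chosen with earlier results of these data known. Named genes are the members, tested paralogues, 5 ATF4 route genes (ATF4, ATF3, DDIT3, CEBPB, TRIB3), list genes with an adjusted p under 0.05 (at most 3 a list), the most abundant gene of each step and the 5 profiles most like CHAC1 by root mean square difference of log2 CPM (prior count 1). Deviations of libraries with the same replicate number correlated at 0.166, 0.368 and 0.433 between the ligands. All were over the limit of 0.1, so the numbers of the sample titles were taken to pair them. Deviations within a group cancel out, so the 3 correlations are not independent, and replicate 3 of both ligands stood apart. With DMSO the numbers did not pair the libraries. Sequences came from RefSeq (GRCh38.p14).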

Additional observations from a re-analysis of the deposited data

How the results depend on the processing

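The log2 fold changes of all 5 members moved by less than the spread between replicates under all alternatives (limma-voom, DESeq2, other scaling by RLE or upper-quartile factors, no filter or a filter of 10 counts per library, a joint fit of the 9 libraries, the replicate block, and the omission of any library). Leaving out 1 library gave ranges, in the order HBC530 against DMSO, MsOc3HBC against DMSO and MsOc3HBC against HBC530, of 1.45 to 1.52, 2.57 to 2.70 and 1.08 to 1.22 for CHAC1. For GGCT they were 0.01 to 0.23, 0.17 to 0.44 and 0.02 to 0.35. Its spread between replicates includes the replicate 3 libraries that stood apart, so that measure is a loose one for GGCT.

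The counts of called genes moved more. Called genes of glutathione metabolism with HBC530 numbered 0, and 1 without a filter. With MsOc3HBC they numbered 2, 1 to 2 with 1 library left out, and 1 at the threshold of the study's methods (adjusted p under 0.5 and a change beyond 1 in log2). Between the ligands they numbered 0, 1 with DESeq2, 1 without a filter, 1 at that threshold, 5 without replicate 3 of both ligands and 7 with the replicate block. In the fit without replicate 3 of both ligands 564 of all 17840 genes were called higher and 1071 lower. The replicate block called 11.4% of 17397 genes. Called ATF4 route and Notch genes with HBC530 numbered 1, and 0 to 1 with 1 library left out. With MsOc3HBC they numbered 2, 5 with DESeq2, 7 without a filter, 7 with the replicate block, 1 to 4 with 1 library left out, and 1 each with RLE factors, upper-quartile factors, 10 counts in every library and limma-voom. Between the ligands they numbered 0, 6 without replicate 3 of both ligands and 7 with the replicate block. For these fits the numbers over all genes are those given above. The cause of these moves was not tested, and where 1 library was left out the fit also held fewer libraries. The CHAC1 share as raw counts, not per length, was 3.12%, 7.85% and 14.7% (DMSO, HBC530, MsOc3HBC), and with 1 library left out the share per length ranged over 2.22% to 2.42%, 5.58% to 6.39% and 11% to 11.7%.

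With DMSO the replicate numbers did not pair the libraries (correlations 0.0872, 0.0131 and 0.172 for HBC530, −0.111, 0.00998 and 0.0412 for MsOc3HBC), and the replicate block called 16 genes with HBC530 and 149 genes with MsOc3HBC, against 3 and 27 without it. Between the ligands it called 1990 genes. The number of libraries limits what can be seen in low genes such as LANCL3.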

Other observations

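CHAC1 is also known as an inhibitor of Notch signalling that blocks the furin cleavage of the Notch receptor, and the genes of that pathway were read as a list. All 23 Notch genes were tested. With all libraries and without the replicate block, none was called by edgeR or by DESeq2 in the 3 comparisons. In these edgeR fits 5, 4 and 2 genes had an unadjusted p under 0.05 (HBC530 against DMSO, MsOc3HBC against DMSO, MsOc3HBC against HBC530). The median log2 fold change of the list was −0.10, −0.13 and −0.09, against 0.00, 0.01 and 0.02 over all genes, and 17, 18 and 15 of the 23 were below 0. Without the replicate 3 libraries of the ligands, which stood apart, the medians were −0.05, −0.07 and −0.12, and 15, 19 and 16 of the 23 were below 0. FURIN, the protease itself, had log2 fold changes of 0.03, −0.08 and −0.11. Without replicate 3 of both ligands 3 of 23 were called between the ligands, 1 higher and 2 lower. That fit called 564 of 17840 genes higher and 1071 lower. With MsOc3HBC against DMSO the replicate block called 2 of 23, both lower, beside 86 higher and 63 lower of 17514 genes. Under the replicate block 4 of 23 were called between the ligands beside 11.4% of all genes, with ADAM17 higher and NOTCH1, HES4 and NRARP lower with MsOc3HBC. FURIN and these 4 names were taken after their values were seen. The Notch list was also chosen with earlier results known.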
